A study of Homo sapiens with 12 samples.

Results

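The genes described here encode the cytosolic chaperone HSP90 and its main co-chaperones, the mitochondrial HSP60 and HSP10 pair, and the small heat shock protein HSPB1. They were taken by gene symbol and are 10 of the 63187 genes in the deposited table: HSP90AA1, HSP90AB1, STIP1, FKBP4, PTGES3, AHSA1, CDC37, HSPD1, HSPE1 and HSPB1. All were measured by RNA-seq in the human cell line MDA-MB-231, which was established from a breast adenocarcinoma and lacks the oestrogen receptor. The deficient medium had neither glucose nor glutamine, the glucose-only medium had 25 mM glucose and lacked glutamine, the glutamine-only medium had 4 mM glutamine and lacked glucose, and the full medium had both nutrients at those concentrations. Every library came from cells held for 36 h in 1 of these media with 3% fetal bovine serum, and before that all cells had been grown in a high-glucose solution with 10% serum. Each medium has 3 libraries, named A, B and C, and the labels do not say whether these letters are separate cultures, so the p-values measure the spread between libraries that may be technical. The glucose-only medium therefore shows the loss of glutamine, the glutamine-only medium the loss of glucose, and the deficient medium the loss of both.

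HSP90 is an ATP-driven dimer that completes the folding of client proteins such as protein kinases and steroid hormone receptors, and cells carry a heat-inducible form (HSP90AA1) beside a more constant one (HSP90AB1). Co-chaperones steer its cycle: STIP1 (HOP) hands clients over from HSP70, CDC37 recruits kinases, AHSA1 speeds up ATP hydrolysis, and PTGES3 (p23) and the immunophilin FKBP4 (FKBP52) act in the late, client-bound complex. HSPD1 (HSP60) and HSPE1 (HSP10) form the barrel and lid of the folding chamber of the mitochondrial matrix, and HSPB1 (HSP27) holds unfolded proteins without using ATP. Many of these genes are targets of heat shock factor 1 (HSF1), which binds heat shock elements built of alternating GAA and TTC units.

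The promoters that carry such letters are shown because 5 of the genes hold the letters of a heat shock element close to a start site. RefSeq promoter windows on GRCh38.p14, each running from 250 bases before to 50 bases after an annotated start, were at hand for 9 of the 10 genes, with 15 windows in all, and none for FKBP4. The letters searched were GAANNTTC and TTCNNGAA, each of which reads the same on both strands, and the 3-unit forms in which NN and 1 more unit (GAA or TTC, alternating) follow either of them, on both strands; the 3-unit forms contain the 2-unit ones. Capitals mark every base that belongs to a match.
HSP90AA1: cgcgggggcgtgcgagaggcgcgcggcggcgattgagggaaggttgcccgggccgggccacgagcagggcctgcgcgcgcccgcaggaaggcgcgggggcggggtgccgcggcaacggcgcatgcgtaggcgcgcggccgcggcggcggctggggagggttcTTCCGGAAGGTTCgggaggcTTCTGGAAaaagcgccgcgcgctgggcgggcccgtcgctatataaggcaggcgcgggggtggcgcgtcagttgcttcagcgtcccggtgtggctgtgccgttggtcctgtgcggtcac
HSP90AB1: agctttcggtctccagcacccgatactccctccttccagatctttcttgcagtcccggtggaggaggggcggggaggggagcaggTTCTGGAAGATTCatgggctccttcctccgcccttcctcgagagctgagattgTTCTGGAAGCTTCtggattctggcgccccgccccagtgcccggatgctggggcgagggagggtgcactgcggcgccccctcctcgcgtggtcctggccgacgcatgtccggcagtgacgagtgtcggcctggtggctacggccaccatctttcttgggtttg
HSPD1: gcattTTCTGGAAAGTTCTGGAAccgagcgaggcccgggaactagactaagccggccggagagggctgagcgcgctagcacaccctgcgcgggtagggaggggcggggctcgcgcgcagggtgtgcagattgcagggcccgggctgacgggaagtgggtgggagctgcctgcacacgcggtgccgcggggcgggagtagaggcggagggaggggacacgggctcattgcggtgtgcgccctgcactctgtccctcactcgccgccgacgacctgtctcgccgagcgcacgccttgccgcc
HSPB1: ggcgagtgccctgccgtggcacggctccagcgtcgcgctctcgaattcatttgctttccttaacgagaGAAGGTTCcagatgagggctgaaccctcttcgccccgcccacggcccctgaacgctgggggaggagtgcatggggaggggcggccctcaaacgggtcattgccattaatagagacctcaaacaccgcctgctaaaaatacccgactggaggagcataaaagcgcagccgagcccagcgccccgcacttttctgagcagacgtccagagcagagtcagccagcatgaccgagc
STIP1: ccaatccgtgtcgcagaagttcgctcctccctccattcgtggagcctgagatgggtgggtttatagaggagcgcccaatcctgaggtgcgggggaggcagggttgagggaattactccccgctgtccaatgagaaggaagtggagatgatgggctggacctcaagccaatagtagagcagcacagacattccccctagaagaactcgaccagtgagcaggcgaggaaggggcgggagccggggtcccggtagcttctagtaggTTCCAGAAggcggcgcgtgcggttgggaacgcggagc
The HSP90AA1 window lies at chr14:102086995-102087294 on the minus strand and holds a 3-unit match that starts 88 bases before the annotated start and a 2-unit match 68 bases before it. The HSP90AB1 window, at chr6:44247693-44247992 on the plus strand, holds a pair of 3-unit matches that start 165 and 112 bases before the start. HSPD1, at chr2:197499791-197500090 on the minus strand, holds 1 run of 18 letters that begins 245 bases before the start and contains 3-unit matches. The windows of HSPB1 (chr7:76302423-76302722, plus strand) and STIP1 (chr11:64185921-64186220, plus strand) each hold 1 match of 2 units, which begins 182 bases before the start in HSPB1 and 13 bases after it in STIP1. A 2-unit match was thus present in 5 of 15 windows of these genes and in 13.5% of all 35116 windows, and a 3-unit match in 3 of 15 and in 0.49%. The other 10 windows, among them every window of AHSA1, CDC37, HSPE1 and PTGES3, did not contain these letters. Beside the windows shown, HSP90AA1 (chr14:102139700-102139999), HSPD1 (chr2:197500225-197500524) and STIP1 (chr11:64185022-64185321) each have a window without them. HSP90AB1 has a pair of such windows (chr6:44245944-44246243 and chr6:44246851-44247150). In each of these genes the outermost start of the RefSeq gene lies in a window without these letters. The HSPE1 window (chr2:197500129-197500428, plus strand) does not overlap the neighbouring HSPD1 window that holds the 18 letters, so that run lies outside it. The deposited values are per gene, so they do not show which start site was used.

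The libraries held 875033 to 1473587 reads assigned to genes, and 1 read corresponded to 0.661 to 1.30 units of the deposited value, which is the number of reads of a gene divided by a size factor of its library and is called the normalized count here. The lowest read number behind any member in any library was 24 (HSPB1) and the highest 8379 (HSP90AA1). Of 13 markers of fibroblasts, blood cells, endothelium and adipocytes, 12 stayed under a normalized count of 10 in every library, and PECAM1 reached 19.7. The label calls the cells epithelial, and 6 epithelial markers were read. The keratins KRT8 (59.0 to 168), KRT18 (234.8 to 396) and KRT19 (63.9 to 164.5) were present in every library. EPCAM was low but detected in every library, with a lowest value of 0.963 and means of 5.52 to 10.57 by medium. CDH1 and ESR1 were at or near 0, with highest values of 0.917 and 2.35. The mesenchymal genes VIM (641 to 1047), CD44 (378 to 786) and AXL (296 to 483) were present in every library. All libraries carry the same batch entry in the labels. These are bulk libraries, in which fewer cells of a kind and less RNA per cell cannot be told apart.

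In the medium without glucose and glutamine, all 10 genes had a higher normalized count than in the full medium, and in no gene did the 3 deficient libraries overlap the 3 full libraries. Over all 9270 genes tested, 29.1% had every deficient library above every full library, and 26.3% were called higher by limma at an adjusted p threshold of 0.05. The increase ranged from 1.31-fold for CDC37 to 6.72-fold for HSP90AA1. Together the 10 genes took 1.78% ± 0.0736 of the protein-coding reads in the deficient libraries, 0.427% ± 0.00268 in the glucose-only, 0.460% ± 0.0101 in the glutamine-only and 0.464% ± 0.0138 in the full libraries (SD, n = 3 each). HSP90AA1 alone made up 58.5% ± 1.47 of the members' reads in the deficient libraries, 31.6% ± 1.88 in the glucose-only, 33.6% ± 1.02 in the glutamine-only and 37.5% ± 0.153 in the full libraries. The other 9 genes as a sum stood at 0.736% ± 0.00836 of protein-coding reads in the deficient libraries and at 0.292% ± 0.00703, 0.305% ± 0.00602 and 0.290% ± 0.00796 in the glucose-only, glutamine-only and full libraries.

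By limma-trend on log2(normalized count + 1), with Benjamini-Hochberg adjustment over 9270 genes and a threshold of 0.05, 10 of 10 members rose in the deficient medium, although CDC37 turned to a log2 change of -0.01 when libraries were scaled to equal totals. Over all genes tested in that comparison 51.8% were called, 26.3% as higher and 25.5% as lower. The median log2 change of the members was 1.92 and that of all genes 0.01. With equal totals the median of all genes shifted by -0.39, and 8 of 10 members rose with a median of 1.52, where 1166 of all 9270 genes were called higher. Of the calls over all genes 23.6% were then increases, against 50.8% with the deposited scaling.

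**Figure D1:**
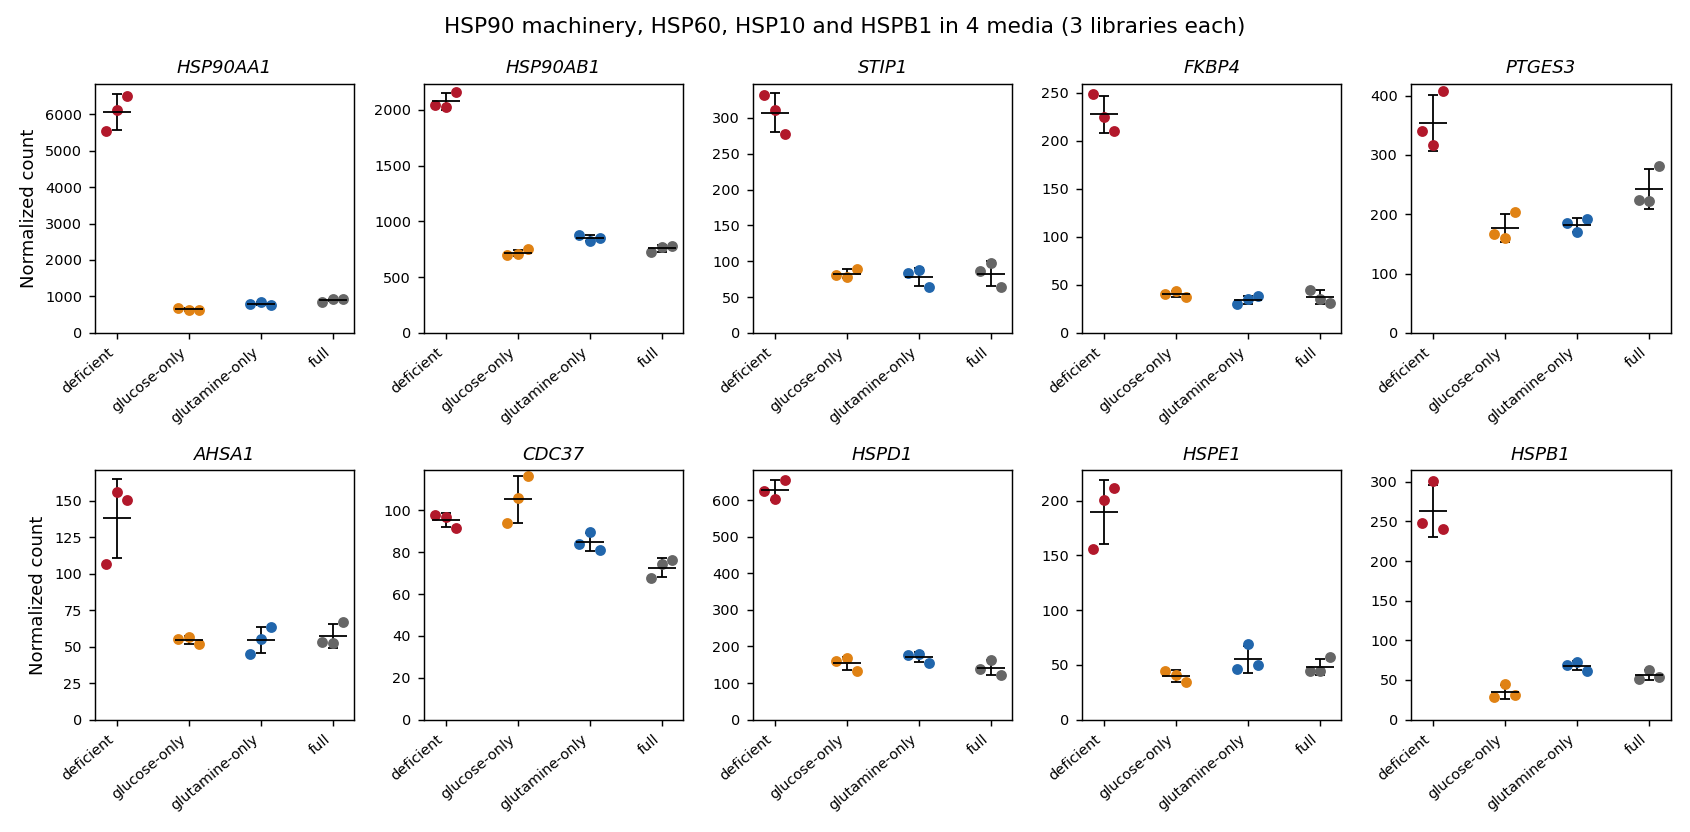
Normalized count (vertical axis, linear, from 0) of each of the 10 genes in the 12 libraries, by medium, with 1 point per library and bars at the mean ± SD (n = 3). The 3 deficient libraries lie above every full library in all 10 panels, as they do for 29.1% of all genes tested, and CDC37, with deficient values of 91.6 to 97.6, is the panel in which they overlap the glucose-only libraries; with libraries scaled to equal totals the CDC37 difference between deficient and full medium is -0.01 on the log2 scale.

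HSP90AA1 (ENSG00000080824, chromosome 14, 102080742 to 102139749, minus strand) had normalized counts of 5531, 6119 and 6506 in the deficient libraries, 694, 637 and 618 in the glucose-only, 780.3, 845 and 775 in the glutamine-only, and 855, 919 and 921 in the full libraries. No 2 media overlapped, and the order ran from deficient through full and glutamine-only down to glucose-only. The log2 change was 2.75 ± 0.10 (SE) for deficient against full medium (limma, adjusted p = 4.13e-19), which placed the gene at the 99.2 percentile of all genes tested. Against the media with 1 nutrient the change was larger, at 3.22 ± 0.10 against glucose-only medium (adjusted p = 2.57e-20, 9.29-fold) and 2.92 ± 0.10 against glutamine-only medium (adjusted p = 3.80e-19, 7.55-fold). Loss of glutamine alone lowered HSP90AA1 by a log2 change of -0.47 ± 0.10 (adjusted p = 0.000988), and loss of glucose alone gave -0.17 (95% interval -0.37 to 0.04, adjusted p = 0.252), which did not pass. The difference of -0.30 between the media with 1 nutrient had an adjusted p of 0.0451 and did not pass by edgeR (adjusted p = 0.112), nor without any 1 glucose-only or glutamine-only library or without full library A (adjusted p of 0.0531 to 0.179).

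HSP90AB1 (ENSG00000096384, chromosome 6, 44246194 to 44253883, plus strand), the HSP90 form described above as more constant, read 2041, 2025 and 2161 in the deficient libraries, 697, 705 and 750.2 in the glucose-only, 878, 826 and 849 in the glutamine-only, and 725, 771 and 779 in the full libraries. The deficient values stood above all others, and the glutamine-only values lay above the full ones without overlap. Its log2 change in the deficient medium was 1.45 ± 0.09, or 2.74-fold (adjusted p = 1.51e-13). The single losses did not pass, at -0.08 (95% interval -0.27 to 0.11) without glutamine and 0.17 (95% interval -0.02 to 0.36) without glucose.

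Within each library the ratio of HSP90AA1 to HSP90AB1 does not depend on the size factor. It was 2.91 ± 0.177 in the deficient libraries, 0.908 ± 0.0853 in the glucose-only, 0.941 ± 0.0711 in the glutamine-only and 1.19 ± 0.0068 in the full libraries (SD, n = 3 each). The lowest deficient library, at 2.71, was above the highest of the other 9, at 1.19. On the log2 scale the deficient libraries exceeded the other 9 by 1.54 (two-sided exact permutation test, p = 0.00909, the smallest that 220 arrangements allow, and 0.0182 after adjustment over the 2 ratios tested). The adjusted p was 0.0727 with any 1 deficient library left out, with differences of 1.51 to 1.59, since 2 libraries against 9 allow no lower value.

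**Figure D2:**
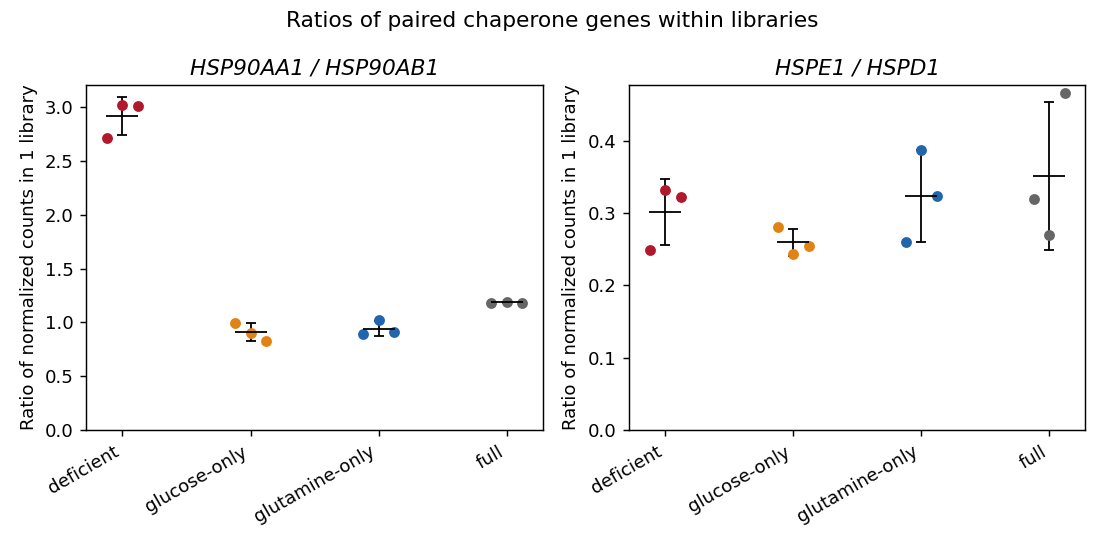
Ratio of normalized counts within each library (vertical axes, linear, from 0) for HSP90AA1 to HSP90AB1 on the left and HSPE1 to HSPD1 on the right, by medium, with 1 point per library and bars at the mean ± SD (n = 3). The left ratio lies between 2.71 and 3.02 in the deficient libraries, above all others, while the right ratio overlaps between the media.

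FKBP4 (ENSG00000004478, chromosome 12, 2794970 to 2805423), the immunophilin of steroid receptor complexes, rose most among the co-chaperones. Its normalized counts were 249, 225 and 210.4 in the deficient libraries, 41.0, 44.0 and 37.6 in the glucose-only, 29.8, 35.6 and 38.2 in the glutamine-only, and 45.0, 35.7 and 31.2 in the full libraries. The 3 media with at least 1 nutrient overlapped each other and none reached the deficient values. FKBP4 rose by a log2 change of 2.59 ± 0.15, or 6.03-fold (adjusted p = 2.21e-14), while the single losses gave 0.14 (95% interval -0.17 to 0.45) without glutamine and -0.10 (95% interval -0.41 to 0.21) without glucose.

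STIP1 (ENSG00000168439, chromosome 11, 64185272 to 64204543), the adaptor between HSP70 and HSP90, had 332, 312 and 278 in the deficient libraries, 80.7, 77.5 and 89.4 in the glucose-only, 83.0, 87.6 and 63.4 in the glutamine-only, and 86.0, 97.8 and 64.2 in the full libraries. The deficient libraries stood apart and the others overlapped. Its log2 change was 1.90 ± 0.14, or 3.73-fold (adjusted p = 3.59e-12), and the single losses gave 0.02 (95% interval -0.27 to 0.30) without glutamine and -0.08 (95% interval -0.36 to 0.21) without glucose.

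AHSA1 (ENSG00000100591, chromosome 14, 77457867 to 77469472), the activator of the HSP90 ATPase, had 107, 156 and 151 in the deficient libraries, 55.4, 56.6 and 51.7 in the glucose-only, 45.1, 54.9 and 63.4 in the glutamine-only, and 52.9, 52.6 and 67.0 in the full libraries. Deficient library A was lower than B and C but still above the other 9 libraries. AHSA1 rose by a log2 change of 1.24 ± 0.16, or 2.35-fold (adjusted p = 1.33e-07), and ran from 1.14 to 1.41 as each library was left out. Neither single loss passed, with -0.07 (95% interval -0.38 to 0.25) without glutamine and -0.08 (95% interval -0.40 to 0.24) without glucose.

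PTGES3 (ENSG00000110958, chromosome 12, 56663349 to 56688284), which stabilizes the client-bound state, had 339.7, 316 and 408 in the deficient libraries, 167, 159 and 203 in the glucose-only, 186, 169.5 and 192 in the glutamine-only, and 225, 222 and 281 in the full libraries. Both media with 1 nutrient lay below the full medium and the deficient medium above it, with no overlap in any of these 3 comparisons. The log2 change was 0.55 ± 0.12 in the deficient medium (adjusted p = 0.000289), -0.45 ± 0.12 without glutamine (adjusted p = 0.00526) and -0.40 ± 0.12 without glucose (adjusted p = 0.0127). These calls were less firm than those above. The increase was 0.15 with equal totals (adjusted p = 0.397), and without full library C the changes were -0.34 without glutamine (adjusted p = 0.0528) and -0.29 without glucose (adjusted p = 0.105). Without glutamine-only library B the change without glucose was -0.35 (adjusted p = 0.0697), and by DESeq2 its adjusted p was 0.0630.

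CDC37 (ENSG00000105401, chromosome 19, 10391133 to 10403542), which delivers kinases to HSP90, had the smallest change of the 10 genes in the deficient medium. Its normalized counts were 97.6, 96.6 and 91.6 in the deficient libraries, 94.0, 106 and 116 in the glucose-only, 83.9, 89.6 and 81.1 in the glutamine-only, and 67.4, 74.3 and 76.1 in the full libraries. The full libraries were lowest and the deficient libraries overlapped the glucose-only ones. The log2 change was 0.39 ± 0.12 in the deficient medium (adjusted p = 0.00852) and 0.53 ± 0.12 without glutamine alone (adjusted p = 0.00187), and 0.22 (95% interval -0.03 to 0.47) without glucose alone, which did not pass. With equal totals the first of these was -0.01 (adjusted p = 0.968) and the second 0.31 (adjusted p = 0.126), and the first had an adjusted p of 0.0657 by DESeq2 and 0.0592 with no filter on low values.

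HSPD1 (ENSG00000144381, chromosome 2, 197486584 to 197500274, minus strand), the HSP60 barrel, had 626, 603 and 655 in the deficient libraries, 159, 168 and 134 in the glucose-only, 177, 179 and 156 in the glutamine-only, and 139, 164 and 122 in the full libraries. Its lid HSPE1 (ENSG00000115541, chromosome 2, 197500379 to 197503449, plus strand) had 156, 200.4 and 211 in the deficient libraries, 44.6, 40.9 and 34.1 in the glucose-only, 46.0, 69.3 and 50.3 in the glutamine-only, and 44.3, 44.2 and 56.9 in the full libraries. In both genes every deficient library was above every other library. HSPD1 rose by a log2 change of 2.15 ± 0.11, or 4.44-fold (adjusted p = 1.39e-15), and HSPE1 by 1.94 ± 0.16, or 3.84-fold (adjusted p = 5.02e-11). Neither passed after a single loss, with 0.28 (95% interval 0.05 to 0.50, adjusted p = 0.0771) for HSPD1 without glucose and -0.27 (95% interval -0.61 to 0.06) for HSPE1 without glutamine. HSPD1 without glucose did pass with full library B left out, at 0.38 (adjusted p = 0.0230), and after quantile normalization, at 0.33 (adjusted p = 0.0357).

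The pair is encoded head to head, with 104 bases between the RefSeq genes, and the ratio of HSPE1 to HSPD1 was 0.302 ± 0.0454 in the deficient, 0.260 ± 0.0188 in the glucose-only, 0.324 ± 0.0635 in the glutamine-only and 0.352 ± 0.102 in the full libraries (SD, n = 3 each). The log2 difference between the deficient and the other 9 libraries was -0.04 (two-sided exact permutation test, p = 0.882). Leaving out 1 library moved it between -0.12 and 0.09. In GENCODE 29 the genes share 281 exonic bases on opposite strands, which is 14.2% of the exon bases of HSPE1 and 6.62% of those of HSPD1. The library kit keeps strand, but the setting used for counting is not given in the sources used here, so reads in that stretch may belong to either gene, and 192 further bases of HSPE1 are shared with the readthrough gene HSPE1-MOB4.

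HSPB1 (ENSG00000106211, chromosome 7, 76302673 to 76304292), the ATP-independent holdase, had 249, 301 and 241 in the deficient libraries, 28.9, 45.1 and 30.6 in the glucose-only, 69.5, 73.2 and 61.5 in the glutamine-only, and 50.9, 63.0 and 54.1 in the full libraries. The glucose-only libraries were the lowest and overlapped no other medium. The log2 change was 2.21 ± 0.15 in the deficient medium, or 4.63-fold (adjusted p = 6.72e-13), and -0.69 ± 0.15 without glutamine alone (adjusted p = 0.00118). Without glucose alone it was 0.28 (95% interval -0.03 to 0.59) and did not pass. HSPB1 was the member with the widest gap between the media with 1 nutrient, at -0.97 ± 0.15 for glucose-only against glutamine-only medium (adjusted p = 3.11e-05).

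**Figure D3:**
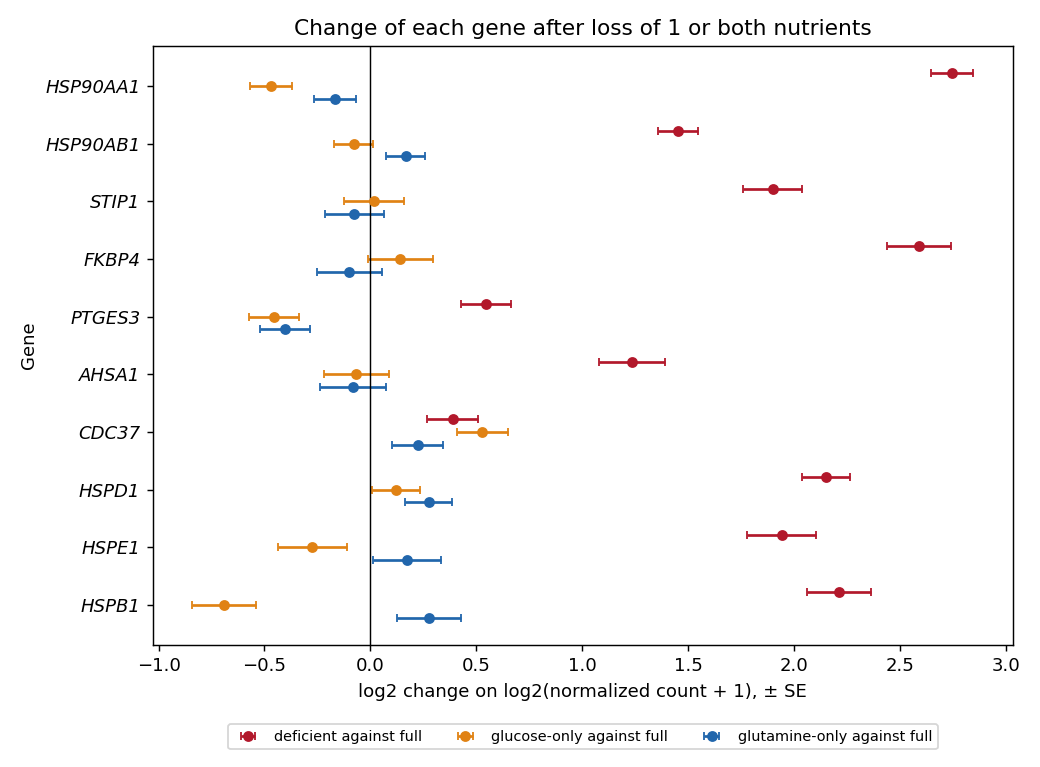
Log2 change of each gene on the log2(normalized count + 1) scale (horizontal axis) in the deficient, glucose-only and glutamine-only media, each against the full medium, with bars of ± SE. Deficient points lie between 0.39 and 2.75, and points for the loss of 1 nutrient between -0.69 and 0.53; with libraries scaled to equal totals CDC37 in the deficient medium is at -0.01.

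The comparisons with the full medium share its 3 libraries, so they are set side by side and not counted against each other. After loss of glutamine alone 1 member rose (CDC37), 3 fell (HSP90AA1, HSPB1 and PTGES3) and 6 did not pass, where 22.9% of all genes tested were called, 9.44% as higher and 13.5% as lower. With equal totals no member was called higher and 4 lower in that comparison, HSPE1 joining the 3 named, at -0.49 (adjusted p = 0.0443). With that scaling 395 of all 9270 genes were called higher and 2154 lower. After loss of glucose alone only PTGES3 was called, as lower, where 22.5% of all genes were called, 10.8% as higher and 11.6% as lower. The median log2 change of the members was -0.07 without glutamine, where all genes had -0.03, and 0.05 without glucose, where all genes had -0.01. Between the media with 1 nutrient 2 members were called, HSP90AA1 and HSPB1, both lower in the glucose-only medium, where 13.3% of all genes were called, 5.05% as higher and 8.26% as lower. The counts of 4, 1 and 2 of 10 members in these comparisons rest on few genes, and nothing is read from them about the members as a group.

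Against the glucose-only medium 9 of 10 members rose in the deficient medium, where 43.2% of all genes were called, 23.2% as higher and 20.1% as lower. Against the glutamine-only medium 9 of 10 rose as well, where 41.5% of all genes were called, 21.6% as higher and 19.9% as lower. The exception in both was CDC37, at -0.14 (95% interval -0.39 to 0.11) and 0.17 (95% interval -0.08 to 0.41). After quantile normalization CDC37 was called lower against glucose-only medium, at -0.35 (adjusted p = 0.0260), and against glutamine-only medium it was -0.11 with equal totals. PTGES3, the member with the smallest increase that passed against full medium besides CDC37, rose by 1.00 ± 0.12 against glucose-only (adjusted p = 7.01e-08) and 0.95 ± 0.12 against glutamine-only medium (adjusted p = 2.07e-07).

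The design allows a test of whether the loss of both nutrients equals the sum of the single losses on the log2 scale, which is the interaction term of the model. It passed for 9 of 10 members, all positive, where 26.5% of all genes passed, 15.5% with a positive and 11% with a negative term. For HSP90AA1 the single losses summed to -0.64, against 2.75 for the loss of both, an interaction of 3.38 ± 0.14 (adjusted p = 1.26e-16). For FKBP4 the sum was 0.04 beside 2.59 for both, an interaction of 2.55 ± 0.22 (adjusted p = 4.41e-10), and for HSPB1 -0.41 beside 2.21, an interaction of 2.62 ± 0.21 (adjusted p = 2.44e-10).

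The smaller terms were those of HSP90AB1 (1.36 ± 0.13, adjusted p = 5.38e-09), AHSA1 (1.38 ± 0.22, adjusted p = 2.32e-05) and PTGES3 (1.40 ± 0.17, adjusted p = 2.10e-07). PTGES3 is the case in which both single losses were decreases, summing to -0.86, while the loss of both was an increase of 0.55. CDC37 had an interaction of -0.36 (95% interval -0.71 to -0.01, adjusted p = 0.118), which did not pass, though it did after quantile normalization, at -0.65 (adjusted p = 0.00702). For the remaining HSPD1, HSPE1 and STIP1 the term was 1.76 ± 0.16, 2.04 ± 0.23 and 1.96 ± 0.20, with adjusted p of 1.61e-09, 9.13e-08 and 1.46e-08.

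**Figure D4:**
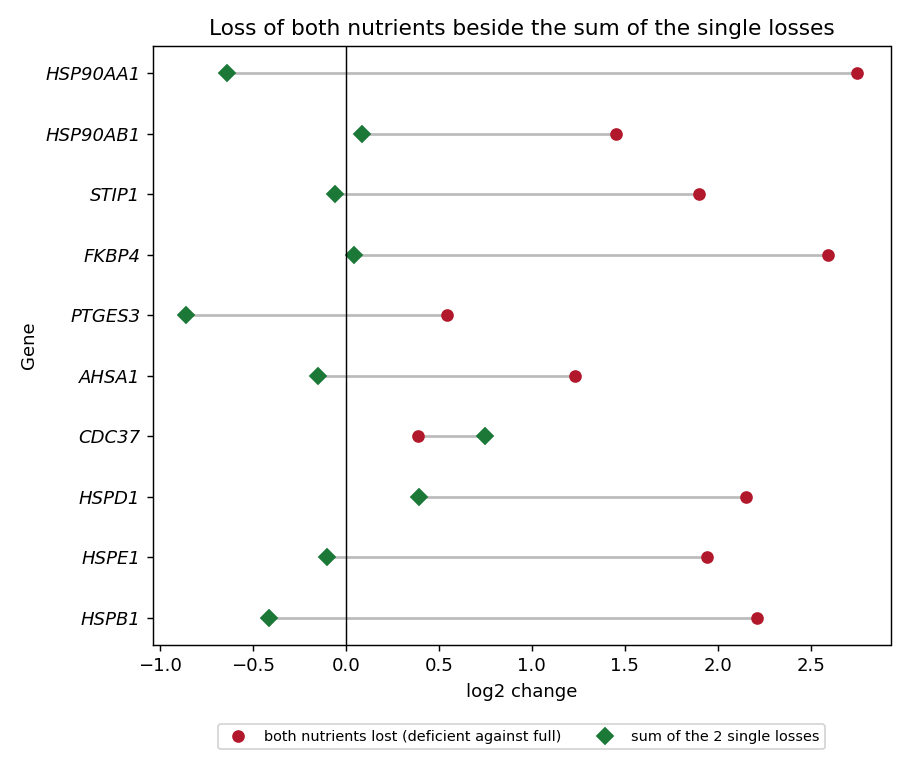
Log2 change after loss of both nutrients (circles, deficient against full) beside the sum of the log2 changes after each single loss (diamonds), by gene. In 9 genes the circle lies right of the diamond, most widely for HSP90AA1 at 2.75 and -0.64, and for CDC37 it lies left of it, at 0.39 and 0.75; with equal totals the CDC37 circle is at -0.01.

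Set on a common scale as normalized count per kilobase of the principal transcript in GENCODE 29, HSP90AA1 led in the deficient medium at 1791 ± 145, before HSP90AB1 at 776 ± 27.8 (SD, n = 3 each). In the full medium HSP90AA1 (266 ± 11.2) and HSP90AB1 (284 ± 10.9) were close, but HSP90AA1 was the lower in each full library. The values were 253 and 271 in library A, 272.1 and 288.2 in B, and 272.6 and 291.3 in C. Next in the deficient medium came HSPB1 (289.7 ± 35.8), HSPD1 (256 ± 10.6), HSPE1 (199 ± 30.7) and PTGES3 (185 ± 24.7), and within this order HSPB1 and HSPD1, and HSPE1 and PTGES3, differed by less than their SDs added together. STIP1 followed at 139.9 ± 12.4 and AHSA1 at 98.2 ± 19.2, while FKBP4 (61.1 ± 5.17) and CDC37 (59.2 ± 2.00) were last and did not differ beyond their spread. In the full medium PTGES3 came next after the HSP90 forms at 126 ± 17.3, and HSPB1 (61.6 ± 6.88), HSPD1 (57.6 ± 8.51), HSPE1 (51.0 ± 7.68), CDC37 (45.2 ± 2.85), AHSA1 (41.0 ± 5.85) and STIP1 (37.6 ± 7.75) formed a run in which each neighbour differed by less than the SDs added. FKBP4 was lowest at 9.99 ± 1.88.

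HSP90 and HSP60 genes have many processed copies in the genome, and reads can be split between them. Of 74 rows for pseudogenes and readthrough genes of the members, 67 stayed under 10 in every library. The highest was HSP90AA2P, with means of 156 in the deficient, 21.8 in the glucose-only, 15.8 in the glutamine-only and 23.1 in the full libraries. The summed copies amounted to 2.64% of HSP90AA1 in the deficient and 2.68% in the full medium, and to 1.75% and 2.18% of HSP90AB1. For HSPD1 the shares were 4.62% and 10.0%, and for AHSA1, through its paralogue AHSA2P, 7.55% and 14%. Exons of HSP90AA1 share 197 bases with WDR20 on the other strand and those of AHSA1 83 bases with VIPAS39.

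Further genes of the HSP90 system were read from a list of 32 co-chaperones, partners and organelle forms of HSP90, of which 27 were tested. In the deficient medium 10 rose, 4 fell and 13 did not pass, beside 26.3% of all genes called higher and 25.5% lower. The median log2 change was 0.36. With equal totals 3 rose, 7 fell and the median was -0.03, where 1166 of all 9270 genes were called higher and 3777 lower. With the deposited scaling 2 fell without any 1 of deficient libraries A and C and full libraries A and C. CACYBP, an HSP90-binding protein, rose by 1.74 ± 0.14 (adjusted p = 4.24e-11) and had an interaction of 2.12 ± 0.20 (adjusted p = 5.15e-09). FNIP1, a folliculin partner that slows the HSP90 ATPase, rose by 1.56 ± 0.12 (adjusted p = 1.42e-11). FKBP8, an immunophilin of the outer mitochondrial membrane, fell by 1.01 on the log2 scale (SE 0.18, adjusted p = 2.45e-05). By quantile normalization and by DESeq2, 8 rose and 2 fell. After loss of glutamine alone 5 of the 27 fell and none rose, where 13.5% of all genes were called lower and 9.44% higher. With equal totals 10 of the 27 fell, where 2154 of all 9270 genes were called lower. By DESeq2 3 fell, and 1 rose without full library C. After loss of glucose alone 3 rose and 4 fell, where 10.8% of all genes were called higher and 11.6% lower. By DESeq2 2 fell, without glutamine-only library A 2, and without full library B 1. Nothing is read from these counts about the list.

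HSP90B1, the HSP90 form of the endoplasmic reticulum, was high in both media without glucose. It averaged 2233 ± 97.7 in the deficient, 534 ± 20.9 in the glucose-only, 2756 ± 12 in the glutamine-only and 716 ± 42.9 in the full libraries. The deficient libraries lay below the glutamine-only ones, and both groups far above the media with glucose. The log2 change was 1.64 ± 0.10 without both (adjusted p = 2.11e-14), -0.42 ± 0.10 without glutamine (adjusted p = 0.00183) and 1.94 ± 0.10 without glucose (adjusted p = 3.00e-15), and the interaction of 0.12 ± 0.14 did not pass (adjusted p = 0.571), with a value of -0.23 after quantile normalization. The cytosolic pair HSP90AA1 and HSP90AB1 had interactions of 3.38 and 1.36 in the same model.

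Of 24 genes for mitochondrial chaperones, import and proteolysis outside the members, 20 were tested. In the deficient medium 9 rose, 2 fell and 9 did not pass, beside 26.3% of all genes called higher and 25.5% lower. The median was 0.34, and without deficient library C 4 fell. With equal totals 5 rose and 4 fell with a median of -0.05, where 1166 of all 9270 genes were called higher and 3777 lower. HSPA9, the HSP70 of the matrix that works upstream of HSPD1, averaged 535.5 ± 37.1 in the deficient, 264.9 ± 2.60 in the glucose-only, 332.7 ± 13 in the glutamine-only and 145 ± 12.7 in the full libraries. It rose after each single loss, by 0.87 ± 0.10 without glutamine (adjusted p = 7.34e-08) and by 1.19 ± 0.10 without glucose (adjusted p = 1.04e-10), and by 1.88 ± 0.10 without both (adjusted p = 1.09e-15). Its interaction was -0.18 (adjusted p = 0.343) and passed only after quantile normalization, at -0.63 (adjusted p = 0.00141), whereas HSPD1 had 1.76. TIMM44, which tethers HSPA9 to the import channel, rose by 1.39 ± 0.25, its exchange factor GRPEL1 by 1.10 ± 0.18, and the protease subunit AFG3L2 by 1.08 ± 0.20 in the deficient medium (adjusted p of 3.97e-05, 9.55e-06 and 5.53e-05).

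Of 25 other heat-inducible HSF1 targets, 19 were tested, and 18 are counted here without HSPA6. This list was drawn up with earlier results of these libraries known, so that its direction is not independent evidence. The genes not tested include the HSP70 genes HSPA1A and HSPA1B, whose highest normalized counts in any library were 3.9 and 1.30. The reason for these low values was not tested. In the deficient medium 17 of 18 rose, where 26.3% of all genes were called higher, and 1 did not pass. Their median log2 change was 2.06, beside 1.92 for the members, and with equal totals 17 rose and the median was 1.67. With that scaling 1166 of all 9270 genes were called higher. DNAJB1, an HSP40 partner of HSP70, rose by 5.62 ± 0.11 (adjusted p = 5.20e-26), the zinc finger gene ZFAND2A by 4.40 ± 0.19 (adjusted p = 1.68e-17), and HSPH1, an HSP70 exchange factor, by 3.79 ± 0.12 (adjusted p = 4.03e-20). HSPA6, a strictly inducible HSP70, had 3250 reads over the deficient libraries, 3 over the glucose-only, 293 over the glutamine-only and 2 over the full libraries, too few in the full medium for a fold. The interaction passed for 18 of 18, with a median of 2.15, where 15.5% of all genes passed with a positive term. It passed for 17 with equal totals, 16 after quantile normalization and 17 by DESeq2. In the same order 1076, 1057 and 844 of all 9270 genes passed with a positive term.

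Single losses of nutrients showed these genes and the members side by side. Without glucose alone 8 of the 18 rose and none fell, where 10.8% of all genes were called higher. DNAJB1 was at 1.31 ± 0.11 (adjusted p = 1.04e-10) and ZFAND2A at 1.83 ± 0.19 (adjusted p = 1.36e-08), and of the 10 members none was called higher. With equal totals 4 of the 18 rose, where 629 of all 9270 genes were called higher. Without glutamine alone 1 of the 18 rose and 6 fell, where 9.44% of all genes tested were called higher and 13.5% lower. With equal totals none of the 18 rose and 10 fell, where 395 of all 9270 genes were called higher and 2154 lower. By DESeq2 none of the 18 rose and 3 fell. None rose without glucose-only library B or C or full library B, and 3 fell without glucose-only library B. Whether the lists differ from one another was not tested.

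**Figure D5:**
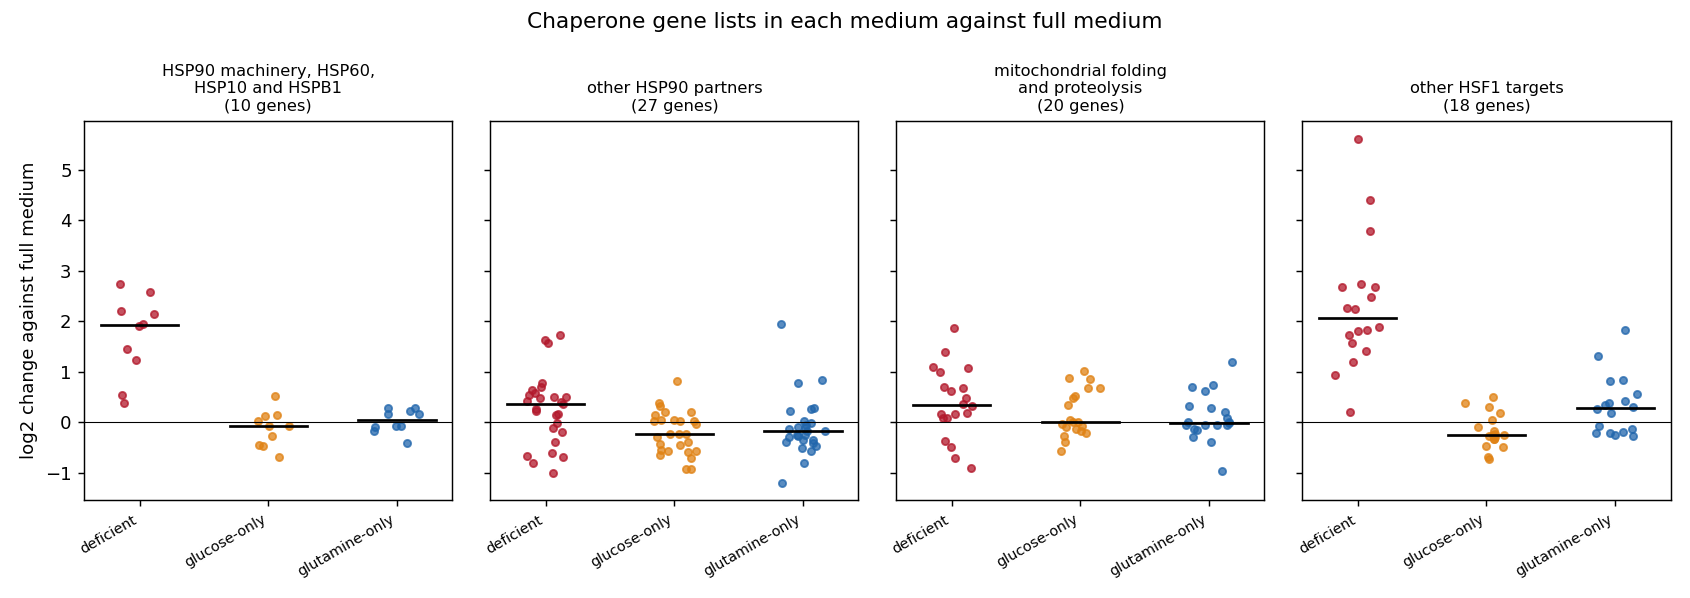
Log2 change against the full medium (vertical axis) of each tested gene in the deficient, glucose-only and glutamine-only media, with 1 point per gene and a line at the median, for the 10 members, 27 other HSP90 partners, 20 mitochondrial folding and proteolysis genes and 18 other HSF1 targets (HSPA6 left out, since it had 2 reads in the full libraries). Medians in the deficient medium are 1.92, 0.36, 0.34 and 2.06; scaled to equal totals those of the HSP90 partners and the mitochondrial genes are -0.03 and -0.05.

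The genes whose log2 normalized counts followed those of HSP90AA1 most closely over the 12 libraries, among 1200 non-member genes with a mean of at least 100, were DNAJA1 (Pearson r = 0.993), ERRFI1 (0.988), SERPINH1 (0.987), IPO7 (0.985) and TRIO (0.985). The deficient libraries lie far from the rest, and over the 9 libraries with at least 1 nutrient the coefficients were 0.819, 0.688, 0.353, 0.820 and 0.677. The size factors are common to all genes of a library. DNAJA1, an HSP40 co-chaperone, averaged 502.5 in the deficient, 152.5 in the glucose-only, 161.6 in the glutamine-only and 187.8 in the full libraries.

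The nearest gene to HSP90AB1 was HSPH1 (0.995, and 0.902 over the 9 libraries), to HSPD1 BAG3 (0.989 and 0.582), to HSPE1 ANXA1 (0.987 and 0.851) and to STIP1 FLNC (0.988 and 0.678). For FKBP4 it was ETS1 (0.987 and 0.624), for AHSA1 ASAP1 (0.968 and 0.496) and for PTGES3 SRP72 (0.969 and 0.919). CDC37 was nearest to MTND2P28 (0.918 and 0.952), a nuclear copy of a mitochondrial gene. Among the members, CDC37 had coefficients between -0.05 and 0.30 with the others, and the other 9 had 0.774 to 0.987 among themselves. These coefficients describe 12 libraries in 4 media and carry no test.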

How the data were processed

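Per the labels' protocols, the 12 libraries (3 in each of 4 media) were stranded and ribosome-depleted. They were available as a deposited table of gene-level signal: per the values, the authors divided the reads of each gene by 1 size factor per library. Per the submitters' processing notes, FastQC, HISAT2, Subread and DESeq2 were used with build GRCh38.p14; versions, annotation release and strand setting are not given in the sources used here. In every library 100% of values were whole multiples of 1 step within 0.01 reads, so reads could be recovered, 875033 to 1473587 per library, which limits precision for genes with few reads.

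Genes that reached a normalized count of 10 in 3 or more libraries were kept (9270 of 32493 with any read), and log2(normalized count + 1) was fitted with limma-trend 3.58.1 in R 4.3.3, with 1 mean per medium over 12 libraries, Benjamini-Hochberg adjustment over all genes kept and a threshold of 0.05. The pseudocount makes changes of low genes smaller. The code was tested on simulated counts. Ratios within libraries were compared by exact permutation tests in scipy 1.17.1. Members were described in full; from each further list up to 4 tested genes with the largest change in the deficient medium were named, and for likeness the 5 genes nearest to HSP90AA1 and 1 for each other member (that of HSPB1 is not reported here). The members and lists were chosen with earlier results of these data known. BAG3, CACYBP, CHORDC1, CRYAB, HSPB8 and TRAP1 each stand in more than 1 list. Alternatives were pseudocounts of 0.5 and 8, other filters, equal totals, protein-coding size factors, quantile normalization, a replicate block, edgeR 4.0.16 and DESeq2 1.42.0 on recovered reads, a threshold of 0.01, each library left out, and fits of 2 media alone. Gene positions are those of RefSeq on GRCh38.p14; transcript lengths and exon overlaps come from GENCODE 29, which may not be the annotation behind the file.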

Additional observations from a re-analysis of the deposited data

Results flagged for a closer look

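The interaction term tests whether losing glucose had a different effect in the absence of glutamine than in its presence, and it differed from 0 past the adjusted threshold of 0.05 (limma) for 9 members. Its log2 values were 3.384 for HSP90AA1, 2.624 for HSPB1, 2.549 for FKBP4, 2.043 for HSPE1, 1.957 for STIP1, 1.755 for HSPD1, 1.402 for PTGES3, 1.382 for AHSA1 and 1.364 for HSP90AB1. Among the other genes named, the term was 4.643 for DNAJB1, 3.502 for HSPH1, 2.439 for BAG3, 2.119 for CACYBP and 2.066 for ZFAND2A. It was 0.512 for FNIP1 (adjusted p = 0.0286), which did not pass with equal totals, quantile normalization or DESeq2, nor with any 1 of 5 single libraries left out (deficient C, glucose-only A or C, glutamine-only B, full B). Over all genes tested 26.5% passed. The groups of 3 libraries are too small for a search for outlying samples.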

How the results depend on the processing

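Of the 44 calls for members over 7 comparisons, 38 kept direction and threshold under every alternative run, and the exceptions are calls of CDC37, PTGES3 and HSP90AA1 given with the results. With a mean of at least 100 required, 6 members were tested and 6 called in the deficient medium, where 74.6% of all genes were called. Members called after loss of glucose alone numbered 1, with 2 after quantile normalization, 0 by DESeq2, 0 at a threshold of 0.01 and 0 to 2 with a library left out. Members called between the media with 1 nutrient numbered 2, with 4 for equal totals, 1 for protein-coding size factors, 1 by edgeR, 1 by DESeq2, 1 at 0.01 and 1 to 2 with a library left out. With equal totals 1152 of all 9270 genes were called in that comparison, and 1234 with the deposited scaling. With the replicate block, which the data did not bear out as pairing (18 same-letter correlations of -0.03 to 0.07), every count of members called was the same (10, 4, 1, 9, 9, 2 and 9), and the HSP90AA1 to HSP90AB1 difference of 1.537 had an adjusted p of 0.0625 over 64 arrangements. Leaving out 1 library gave 1.5 to 1.59 for that ratio and -0.119 to 0.087 for HSPE1 to HSPD1.

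Values that changed sign were small. With equal totals they were -0.096 for HSPD1, -0.2 for STIP1 and -0.072 for FKBP4 (glucose-only against full), -0.009 and -0.114 for CDC37 (deficient against full and against glutamine-only), and -0.083 for AHSA1 and -0.007 for STIP1 (glucose-only against glutamine-only). With quantile normalization they were 0.038 for AHSA1 (glucose-only against full), 0.001 for STIP1 (glutamine-only against full), 0.049 for PTGES3 (glucose-only against glutamine-only) and -0.23 for the HSP90B1 interaction. With a library left out, AHSA1 ran from -0.124 to 0.047, -0.196 to 0.045 and -0.111 to 0.13, and STIP1 from -0.152 to 0.147, -0.244 to 0.066 and -0.049 to 0.181, in glucose-only against full, glutamine-only against full and glucose-only against glutamine-only medium. FKBP4 ran from -0.216 to 0.04 (glutamine-only against full) and PTGES3 from -0.157 to 0.018 (glucose-only against glutamine-only).

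Over all genes, a mean of at least 100 left 904, 618, 625, 777, 777, 486 and 633 calls among 1212 genes, in the order deficient, glucose-only and glutamine-only against full, deficient against glucose-only and glutamine-only, glucose-only against glutamine-only, and interaction. DESeq2 called 1255, 604 and 1495 genes and limma 2124, 1234 and 2458 (glucose-only against full, glucose-only against glutamine-only, interaction), and a threshold of 0.01 gave 1245, 656 and 1496, and 1276 in place of 2083 for glutamine-only against full. Equal totals shifted the median of all genes by -0.39, -0.21 and -0.12 against full medium and by -0.18, -0.27 and -0.10 in the next 3 comparisons, and the share of calls that were increases was 23.6%, 15.5%, 31.6%, 36.5%, 25% and 21.3%, against 50.8%, 41.2%, 48.2%, 53.6%, 52% and 37.9% as deposited. For the interaction it was 45.7% after quantile normalization and 58.5% as deposited. Depth limits AHSA1, STIP1, CDC37, FKBP4, HSPE1 and HSPB1 most, each of which had under 100 reads in at least 1 library.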

Other observations

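Of 10 further genes in a list of small heat shock proteins and their partners, BAG3 was the 1 that passed the filter on low values. The highest normalized counts of the crystallin CRYAB and of HSPB8 in any library were 4.83 and 2.42. HSPB2, HSPB3 and CRYAA were listed at 0 throughout, and no level is read from these zeros, since HSF1 and DNAJA3, a mitochondrial HSP40 that most cells use, were also listed at 0 in every library. BAG3, a co-chaperone that links HSPB8 and HSP70, averaged 448 ± 11.2 in the deficient, 71.7 ± 6.41 in the glucose-only, 79.2 ± 5.17 in the glutamine-only and 69.9 ± 12.9 in the full libraries (SD, n = 3 each). Its log2 change in the deficient medium was 2.68 ± 0.12 (limma, adjusted p = 9.01e-17).

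Among the heat shock factors, HSF2 averaged 23.4 ± 10.7 in the deficient, 14.4 ± 2.27 in the glucose-only, 14.3 ± 3.65 in the glutamine-only and 15.3 ± 0.285 in the full libraries (SD, n = 3 each). It did not pass in the deficient medium (log2 change 0.47, adjusted p = 0.205), but it did by edgeR (0.69, adjusted p = 0.0370) and with deficient library B left out (0.87, adjusted p = 0.0191). HSBP1, which binds HSF1, fell by 0.56 on the log2 scale (adjusted p = 0.0166), a call lost without full library C (adjusted p = 0.105) and by DESeq2 (adjusted p = 0.0614). HSF4 reached 9.63 at most.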
